A study of Mus musculus with 2 samples.

Results

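The proteasome genes of the mouse cerebral cortex were examined as 49 genes with 103 probe sets, out of 18193 genes named by 1 symbol on the arrays. A gene was taken as a member when its symbol in the platform annotation began with Psma, Psmb, Psmc, Psmd, Psme, Psmf or Psmg followed by a digit and its probe set named no other gene. The rule itself uses no measured value, but the members were chosen with earlier results of these data known. All 49 matched the RefSeq gene table by gene identifier. The rule also takes in Psmc3ip and Psme3ip1, whose names come from the proteasome proteins that their products bind. Psmc3ip acts in meiotic recombination, and neither product is a part of the particle. The other 47 genes encode subunits, activators, an inhibitor and assembly factors.

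The tissue came from male mice aged 4 weeks on a mixed 129/B6 background. One pool mixed equal amounts of total RNA from 3 mice titled as knockouts of Gnmt, the gene of glycine N-methyltransferase, and the other mixed RNA from 3 wild-type mice. Each pool was hybridised to 1 Affymetrix expression array, so no test of a difference was possible, and each ratio is a description of these 2 arrays. Samples were assigned by title; in the sample titled KO, the field for genotype says wild-type, which goes against its title. It is called the KO-titled pool here. The labels state neither the deleted part of Gnmt nor the construct.

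The proteasome is the cell's main machine for breaking down proteins that carry a ubiquitin chain. Its core particle is a barrel of stacked rings. The outer alpha rings gate the entrance, and the inner beta rings hold the proteolytic sites. The regulatory particle caps the barrel: ATPases at its base unfold and thread the substrate, while the lid removes the ubiquitin chain. Other activators can replace that cap, and dedicated chaperones build the rings. In neurons the proteasome also turns over synaptic proteins.

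Several facts about the arrays touch every value below. Gnmt itself has 1 probe set, which gave 21.5 units in the KO-titled pool and 10 units in the wild-type pool, both under the floor of 64.2 units below which a signal was not counted as measured. With both signals under the floor it could not check the genotype. Xist, the RNA of the inactive X chromosome in females, was at least 39.6-fold higher in the KO-titled pool, with 2560.3 units against 49.6 units in the wild-type pool, although both pools are labelled male. The Y-linked genes were measured in both pools: Eif2s3y gave 989 units in the KO-titled pool and 879.8 units in the wild-type pool, Uty 161.4 and 186.7 units, and Kdm5d 198.9 and 355.4 units in the same order. Several pituitary hormone genes were lower in the KO-titled pool. Gh gave 200 units there and 23222.9 units in the wild-type pool, while Tshb, near the floor, gave 72.7 against 89.2 units, and the summed signal of 9 pituitary markers was 775.3 against 31454.6 units. The neuron markers Snap25 and Slc17a7 fitted the labelled tissue in both pools. Snap25 gave 26418 units in the KO-titled pool and 28236.9 units in the wild-type pool. Slc17a7, the vesicular glutamate transporter of cortical neurons, gave 5652.2 and 4892.3 units in the same order. Among the other neuron markers, Neurod6 was lower, with 966.8 against 2918 units in the wild-type pool. Tbr1 was higher, with 2218.2 against 1057 units, and the rest were within 1.5-fold. The control probe sets of Gapdh had log2 ratios of -0.23 at the 3′ end, -0.32 in the middle and -0.36 at the 5′ end, while those of beta-actin had 1.44, 1.96 and 1.43. Those of pyruvate carboxylase lay between -0.69 and -0.09. Bacterial and phage control transcripts, which are added to the hybridisation in fixed amounts, were mostly lower on the KO-titled array, in 16 of 18 probe sets. Their log2 ratios ran from -1.81 to -1.56 for bioC, from -0.65 to -0.35 for bioB, from -0.33 to -0.24 for cre and from -0.30 to 0.07 for bioD. What part the hybridisation had in the ratios of the proteasome genes was not tested. The median signal was 124.9 units on the KO-titled array and 92 units on the wild-type array.

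Proteasome genes were more often lower than higher in the KO-titled pool, and the lower ones were spread over both particles. Of the 49 genes, 46 were measured on both arrays by their brightest probe set. Of these, 16 were at least 1.5-fold lower in the KO-titled pool, which is 34.8% of them, against 18.2% of all 12244 measured genes. Only Psmd6 was at least 1.5-fold higher, 2.17% of the members, against 12.5% of all measured genes. At a limit of 2-fold, 10 members were lower and 0 higher, against 6.75% and 3.47% of all genes. The median log2 ratio of the KO-titled over the wild-type pool was -0.35 over the members and -0.06 over all genes, and 36 of the 46 members lay below 0. Without Psmc3ip and Psme3ip1 the counts were 15 lower and 1 higher among 44 genes, with the same median of -0.35. No test stands behind these counts.

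With no replicate arrays, the error of a gene ratio was taken from the disagreement between probe sets of the same gene. This error is the SD of the difference between the 2 brightest probe sets, over 5375 genes, divided by the square root of 2. Its value was 0.58 on the log2 scale, or 1.49-fold, pooled over the brightest and the dimmer second probe set. A single ratio of 1.5-fold is therefore about 1 SD of that error, which leaves out the spread between mice and between hybridisations. The bioC controls differed between the arrays by more than that SD. The log2 ratios of the 46 members had an SD of 0.58, and those of all measured genes 0.64.

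**Figure D1:**
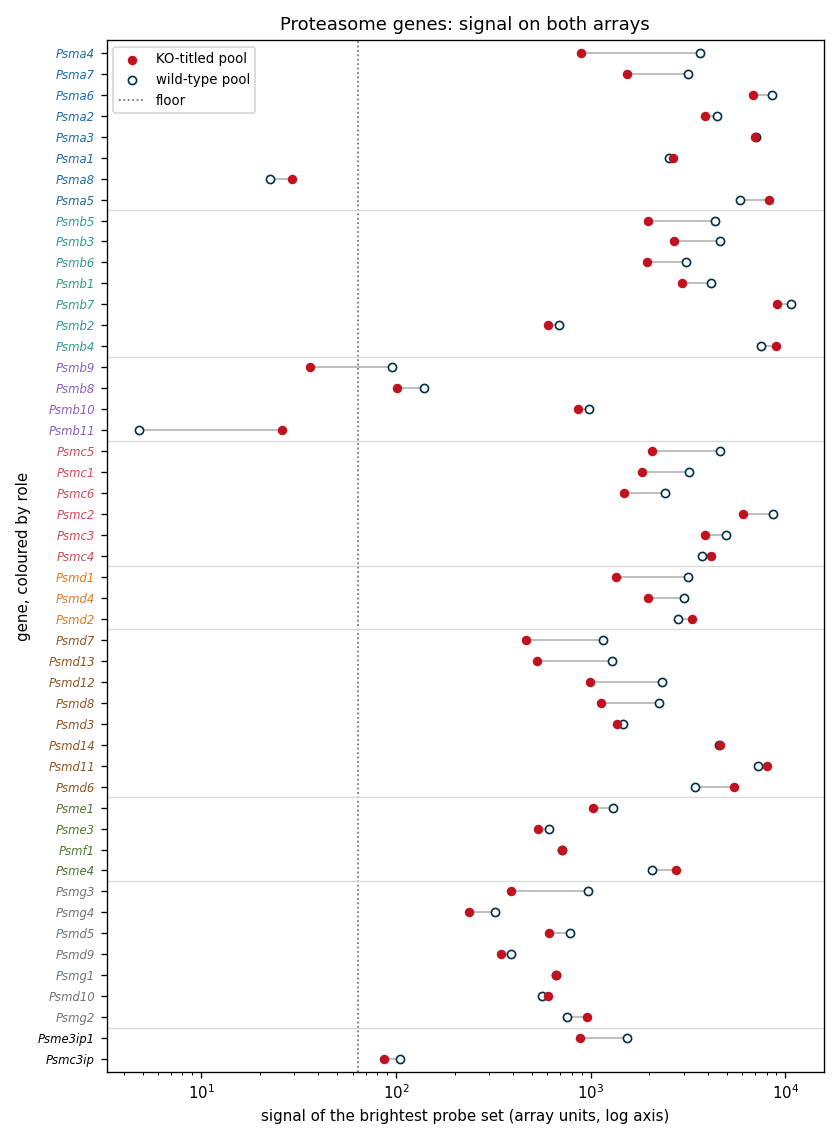
Signal of the brightest probe set of each of the 49 genes (log axis, array units) in the KO-titled pool (filled) and the wild-type pool (open), grouped by role, each value from 1 array; the dotted line is the floor of 64.2 units. Psma4 has the widest gap among measured genes, with 895.1 against 3660.1 units, and Psma8, Psmb9 and Psmb11 are not above the floor on both arrays.

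In the alpha ring of the core, the lowest and the highest members lay far apart. Psma4, an alpha ring subunit, gave 895.1 units in the KO-titled pool and 3660.1 units in the wild-type pool. It was 4.12-fold lower, the lowest log2 ratio of all members at -2.04, and that value rests on a single probe set. Psma7, another alpha ring subunit, gave 1538.3 units against 3177.1 units in the wild-type pool and was 2.08-fold lower. Its second probe set was also lower, with a log2 ratio of -1.15 beside -1.06. The remaining measured alpha subunits were within 1.5-fold. Psma5 was the highest of them, with 8217.2 units in the KO-titled pool and 5863.7 units in the wild-type pool, a log2 ratio of 0.47. Psma6, Psma2, Psma3 and Psma1 had log2 ratios of -0.34, -0.23, -0.03 and 0.05. Psma8, an alpha subunit of the testis, was below the floor in both pools, at 29.1 and 22.6 units in the KO-titled and wild-type pools. The 7 measured alpha genes had a median of -0.23.

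In the beta ring, the catalytic subunit genes did not move by the same amount. The standard ring has 3 catalytic subunits. Psmb5, which carries the chymotrypsin-like site, gave 1962.8 units in the KO-titled pool and 4349.5 units in the wild-type pool and was 2.23-fold lower. Psmb6, of the caspase-like site, gave 1947.3 units against 3074.4 units in the wild-type pool and was 1.59-fold lower, a log2 ratio of -0.67 that was -0.53 with quantile normalization. Psmb7, of the trypsin-like site, gave 9014.8 units against 10712.2 units in the wild-type pool, a log2 ratio of -0.26. Each of these values rests on 1 measured probe set. Among the noncatalytic beta subunits, Psmb3 gave 2686.4 units in the KO-titled pool and 4636.7 units in the wild-type pool and was 1.74-fold lower, with its second probe set at -0.90. Psmb1 and Psmb2 had log2 ratios of -0.52 and -0.19. Psmb4 was the highest at 0.25, with 8981.9 units against 7484 units in the wild-type pool, while its other probe set gave -0.37. Over the 7 standard beta genes the median was -0.52.

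The inducible beta subunits take the place of the standard catalytic subunits in the immunoproteasome, which forms in immune cells and after interferon. Psmb8, which replaces Psmb5, gave 100.9 units in the KO-titled pool and 139.4 units in the wild-type pool, a log2 ratio of -0.48. Psmb9, which replaces Psmb6, gave 36 units in the KO-titled pool, under the floor, and 94.9 units in the wild-type pool, over it, so it was at least 1.49-fold lower in the KO-titled pool. Psmb10, which replaces Psmb7, gave 865.1 units against 980.8 units in the wild-type pool, a log2 ratio of -0.19. Psmb11, the thymus form, was below the floor in both pools. No inducible subunit was thus higher in the KO-titled pool by a measured value. The log2 ratio of the inducible minus that of the standard subunit was 0.68 for Psmb8 and Psmb5 and 0.07 for Psmb10 and Psmb7. For Psmb9 and Psmb6 it was -0.74, a value that rests on a Psmb9 signal under the floor.

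In the base of the regulatory particle, 5 of 9 genes were lower by 1.5-fold or more in the KO-titled pool and 0 were higher. Of all measured genes, 18.2% were lower and 12.5% higher. The base holds a ring of 6 ATPases. Psmc5 gave 2056.2 units in the KO-titled pool and 4594.6 units in the wild-type pool and was 2.25-fold lower. Psmc1 gave 1841 units against 3211.3 units in the wild-type pool and was 1.76-fold lower. Psmc6 gave 1485.2 units against 2419.2 units in the wild-type pool and was 1.64-fold lower by its brightest probe set. Its 3 measured probe sets disagreed, at -0.72, -0.96 and 0.02. Psmc2 and Psmc3 had log2 ratios of -0.54 and -0.36. Psmc4 was the highest ATPase gene at 0.14, with 4131.3 units in the KO-titled pool and 3716.5 units in the wild-type pool, and its other probe set gave -0.33. The 6 ATPase genes had a median of -0.63.

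Next to the ATPases sit large scaffold subunits and a ubiquitin receptor. Psmd1, a scaffold, gave 1355.2 units in the KO-titled pool and 3160.7 units in the wild-type pool and was 2.35-fold lower. Psmd2, the other scaffold, gave 3297.5 units against 2802.2 units in the wild-type pool, a log2 ratio of 0.22. These 2 related subunits thus had ratios of opposite sign, each from 1 measured probe set. Psmd4, a receptor for ubiquitin chains, gave 1964.5 units in the KO-titled pool and 3019.7 units in the wild-type pool and was 1.55-fold lower, with its second measured probe set at -0.91. With quantile normalization its brightest probe set had -0.49.

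The lid genes were split: 4 of 8 were lower by 2-fold or more in the KO-titled pool, and the other 4 were near equal or higher. Of all measured genes, 6.75% were lower by 2-fold or more. Psmd7 gave 466.9 units in the KO-titled pool and 1156.4 units in the wild-type pool and was 2.50-fold lower. Psmd13 gave 532.4 units against 1285.6 units in the wild-type pool and was 2.43-fold lower, with its second measured probe set at -0.71. Psmd12 gave 996.2 units against 2335.6 units in the wild-type pool and was 2.36-fold lower. All 3 encode structural subunits of the lid. Psmd8, another lid subunit gene, gave 1128.5 units in the KO-titled pool and 2245.9 units in the wild-type pool and was 2.01-fold lower. Its log2 ratio was -0.87 with quantile normalization and -0.93 with loess, short of 2-fold but past 1.5-fold. Psmd14 encodes the deubiquitinase of the lid, which pairs with the Psmd7 product. It gave 4603.7 units in the KO-titled pool and 4578.1 units in the wild-type pool, so its signals were almost equal while those of its partner were not. Psmd3 had a log2 ratio of -0.12. Psmd11 had 0.15 by its brightest probe set and a range of -1.22 to 0.55 over 5 measured probe sets.

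Psmd6, also a lid subunit, was the single member at least 1.5-fold higher, and its probe sets disagreed. The brightest gave 5474.2 units in the KO-titled pool and 3440.3 units in the wild-type pool, a 1.58-fold higher signal. That probe set has a suffixed identifier, which marks probes that can bind several transcripts. The other gave 3460.1 units against 4248.6 units in the wild-type pool, a log2 ratio of -0.31.

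**Figure D2:**
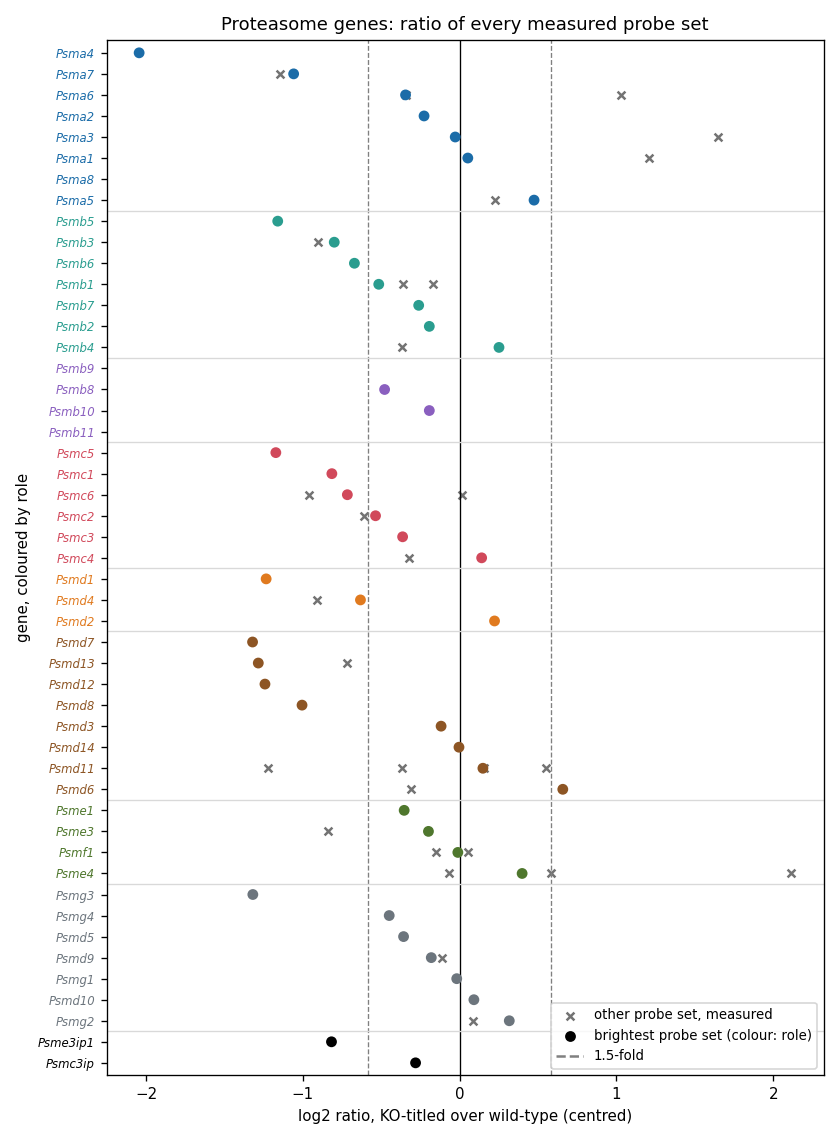
Log2 ratio of the KO-titled over the wild-type pool for every measured probe set of each gene (points, the brightest probe set, coloured by role; crosses, the others); dashed lines mark 1.5-fold and rows without a point were not measured on both arrays. Psma7, Psmb3, Psmd4 and Psmd13 have all their measured probe sets past the lower line, while Psma3, Psma6 and Psme4 have crosses far to the right of their points.

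Activator genes and the inhibitor gene lay near equality. Psme1 encodes a subunit of the interferon-induced activator and gave 1033.4 units in the KO-titled pool and 1309.4 units in the wild-type pool, a log2 ratio of -0.35. Psme3, the gene of a nuclear activator, had -0.20, with a second probe set at -0.84. Psmf1, which encodes a protein first described as a proteasome inhibitor, had -0.01, with 710.5 and 710.1 units in the KO-titled and wild-type pools. Psme4, the gene of a large nuclear activator, was the highest at 0.40, with 2747.4 units in the KO-titled pool and 2066.7 units in the wild-type pool. Its 4 measured probe sets ran from -0.07 to 2.11. By brightest probe sets 0 of these 4 genes passed 1.5-fold.

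Among the assembly factors only Psmg3 passed 1.5-fold. The Psmg genes encode chaperones that work in pairs to build the alpha ring. Psmg3 gave 390.6 units in the KO-titled pool and 966.2 units in the wild-type pool and was 2.49-fold lower, by its single measured probe set. Psmg4, its partner, gave 237.5 units against 321.5 units in the wild-type pool, a log2 ratio of -0.45. The other pair, Psmg1 and Psmg2, had -0.02 and 0.32, and Psmg2 was the highest assembly gene. Psmd5, Psmd9 and Psmd10, whose products help to assemble the base, had -0.36, -0.18 and 0.09. The 7 assembly genes had a median of -0.18. Of the 2 genes outside the particle, Psme3ip1 gave 877.3 units in the KO-titled pool and 1532.8 units in the wild-type pool and was 1.76-fold lower, and Psmc3ip had -0.28.

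Set side by side, the regulatory particle had 9 of 17 measured genes lower by 1.5-fold or more and 1 higher, and a median of -0.63, and the core had 5 of 16 lower and 0 higher, with a median of -0.30. Those counts are 52.9% and 31.3% lower, against 18.2% of all measured genes, and 5.88% and 0% higher, against 12.5%. Activators, the inhibitor and assembly factors together had 1 of 11 lower. With 1 array per pool these differences between role groups could not be tested.

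**Figure D3:**
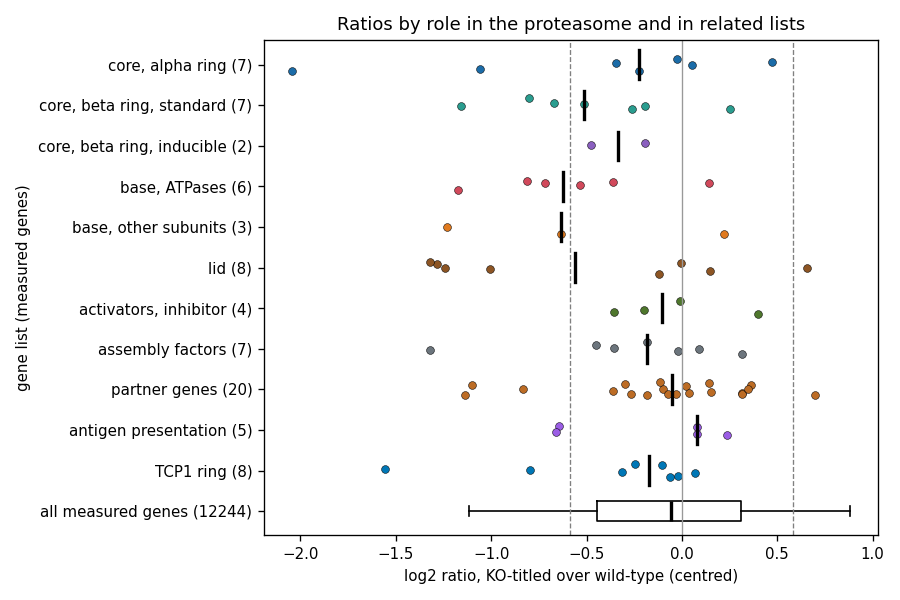
Log2 ratios of measured genes by role, in related gene lists and over all 12244 measured genes (points, genes by brightest probe set; thick lines, medians; box, quartiles; whiskers, the 5th and 95th percentiles; dashed lines, 1.5-fold). The medians of the base and lid groups lie between -0.63 and -0.56, and those of the partner genes and of all genes at -0.05 and -0.06.

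The probe sets of a proteasome gene did not always agree. Of 20 members with several measured probe sets, 11 had all of them on the same side of 0 and 9 did not. In 4 of the 20 (Psma7, Psmb3, Psmd4 and Psmd13) every measured probe set lay 1.5-fold or more below equality, and in 0 did every one lie 1.5-fold or more above. No member had measured probe sets past 1.5-fold in both directions. The other 26 measured members rest on 1 measured probe set. The same counts were not made over all genes, so these show nothing particular to the members.

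The dimmer probe sets of members included the highest ratios. Over the 29 measured probe sets that were not the brightest of their gene, 8 were lower and 4 higher by 1.5-fold or more in the KO-titled pool, or 27.6% and 13.8%. Among all genes such probe sets were lower in 18% and higher in 22.1% of cases. Those 4 belonged to Psma1, Psma3, Psma6 and Psme4. The second Psma3 probe set gave 483.9 units in the KO-titled pool and 152.8 units in the wild-type pool, a log2 ratio of 1.65, while the brightest gave 6958.7 and 7035.6 units in the same order of pools. For Psma1 the second probe set had 1.21, with 223 units against 95.8 units in the wild-type pool. Of the 28 member probe sets below the floor on at least 1 array, 9 were above it in the KO-titled pool alone, 6 in the wild-type pool alone and 13 in neither. Over all genes the first of these kinds was also the more frequent, with 2613 probe sets against 1423. Which transcript each dim probe set detects was not analysed here.

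Member genes were bright on these arrays and short in the genome. Their median signal was 2139 units, against 665 units over all measured genes, and their median gene length was 12363 bases against 24914 bases. Among the brightest 25% of all genes the median log2 ratio was -0.08 and 16.2% were at least 1.5-fold lower, while of the 26 members among them 10 were lower, with a median of -0.35. Among the shortest 25% of genes the median was -0.15 and 21.3% were lower, while 10 of 20 members there were lower, with a median of -0.56. Among the next 25% by length, 4 of 16 members were lower, against 19.6% of all genes of that length. The medians there were -0.29 for the members and -0.07 for all genes. Median ratios rose with length over all genes and over the members, but few members are long. The third 25% held 7 members, with a median of -0.19, of which 1 was lower, against 17.0% of all genes there. The longest 25% held 3, with a median of -0.004, of which 1 was lower, against 15.1% of all genes there.

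**Figure D4:**
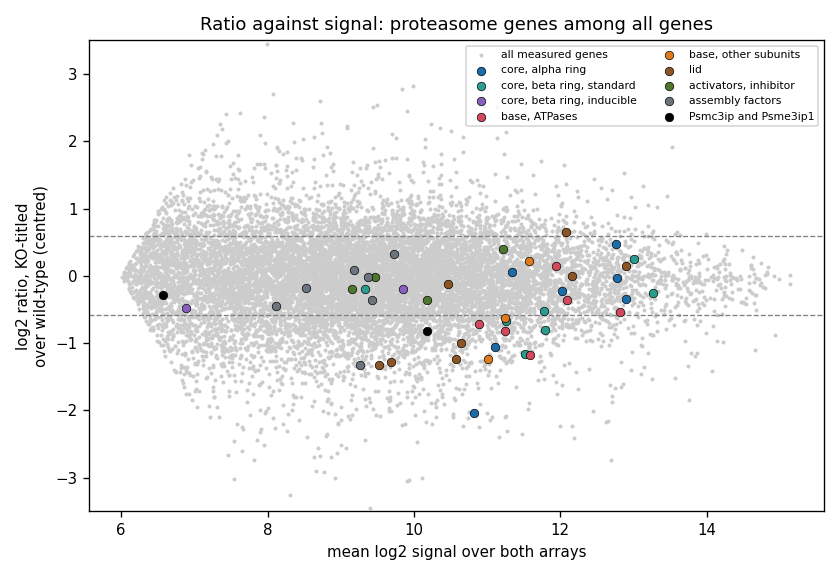
Log2 ratio of the KO-titled over the wild-type pool against mean log2 signal, for all measured genes (grey) and the 46 measured members (coloured by role), by brightest probe set; dashed lines mark 1.5-fold, and 4 genes lie outside the vertical range of 3.5 either way. Members sit mostly at high signal, and those below the lower line stand at middle to high signal.

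Markers of some cell types, mainly microglia and astrocytes, differed between the same pools. Of all measured genes, 18.2% were lower and 12.5% higher by 1.5-fold or more. Microglia markers numbered 9 measured genes, of which 6 were lower and 1 higher by 1.5-fold or more in the KO-titled pool, and the summed signal of the 11 with a probe set was 10849 against 12868.8 units. Csf1r, at 7830.1 and 6389.8 units in the KO-titled and wild-type pools, made up most of the KO-titled sum, and the other 10 summed to 3018.9 against 6479 units. Of 8 astrocyte markers, 4 were lower and 0 higher, with a sum of 67198.9 against 71783.7 units in the wild-type pool. Gfap, Aqp4, Slc1a3 and S100b were lower, while Slc1a2, Gja1, Aldh1l1 and Aldoc were within 1.5-fold. Among 9 neuron markers 1 was lower and 1 higher, among 7 oligodendrocyte markers 1 was lower, and among 5 endothelial markers 0 passed either way. The neuron shares, 11.1% each way, and the oligodendrocyte share of 14.3% lower were not above those of all genes. None of these markers was listed at 0. In bulk tissue, fewer cells of a type and less RNA per cell cannot be told apart. The part of cell makeup and of pituitary RNA in the proteasome ratios was not tested.

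Genes that work with the proteasome had a median ratio close to that of all genes. A list of 29 partner genes covered ubiquitin, shuttle factors, bound deubiquitinases, the maturation factor of the core and the transcription factors of proteasome genes. Of these, 20 had a single-gene probe set and all 20 were measured. In the KO-titled pool 3 were lower and 1 higher by 1.5-fold or more, or 15% and 5%. Over all measured genes the shares were 18.2% and 12.5%. The median of the partner genes was -0.05, and it was 0.10 with quantile normalization. Rad23b, a shuttle that brings ubiquitinated proteins to the proteasome, gave 1105.5 units in the KO-titled pool and 2349 units in the wild-type pool and was 2.14-fold lower. Uchl5, a deubiquitinase of the regulatory particle, gave 1181.2 units against 2083.1 units in the wild-type pool and was 1.78-fold lower, while its second probe set had a log2 ratio of -0.15. Pomp, the maturation factor of the core, had a log2 ratio of 0.32, and Usp14, the other bound deubiquitinase, had -0.10.

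The transcription factor genes Nfe2l1 and Nfe2l2 marked the ends of that list. Nfe2l1 encodes the factor that raises proteasome gene transcription when proteasome activity is blocked. It gave 1192.1 units in the KO-titled pool and 728.3 units in the wild-type pool and was 1.62-fold higher, by a single measured probe set with a suffixed identifier. Nfe2l2, the oxidative stress factor, gave 261.9 units against 570.9 units in the wild-type pool and was 2.20-fold lower.

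Both factors bind antioxidant response elements, so the promoters of the members were searched for the core letters TGACNNNGC on both strands, in windows from 250 bases before to 50 bases after the gene start (RefSeq, GRCm38.p6). Promoter windows were found for 41 of the 49 genes. The letters occurred in 6 of these 41 genes and in 13.6% of their 44 windows, against 12.4% of all 32851 promoter windows. The stretches upstream of the gene start that hold them follow, on the strand of the gene, because they include both catalytic subunits that were at least 1.5-fold lower. Capitals mark the match, which for Psmc6 and Psmd12 reads on the opposite strand. Their positions are chr14:54617999-54618077 (minus strand) for Psmb5, chr11:70525313-70525356 (plus) for Psmb6, chr14:45329574-45329640 (plus) for Psmc6, chr11:107479278-107479324 (plus) for Psmd12 and chr5:123228124-123228189 (plus) for Psmd9. The match of Psme4 lies after the gene start and is not shown.
Psmb5: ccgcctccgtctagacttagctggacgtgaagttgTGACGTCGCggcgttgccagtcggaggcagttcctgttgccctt
Psmb6: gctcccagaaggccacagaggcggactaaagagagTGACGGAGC
Psmc6: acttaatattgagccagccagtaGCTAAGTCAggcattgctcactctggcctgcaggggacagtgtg
Psmd12: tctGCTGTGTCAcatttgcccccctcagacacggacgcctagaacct
Psmd9: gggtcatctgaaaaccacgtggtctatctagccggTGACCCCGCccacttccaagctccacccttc

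Of the 6 genes with the letters, Psmb5, Psmb6, Psmc6 and Psmd12 were at least 1.5-fold lower, Psmd9 had a log2 ratio of -0.18 and Psme4 had 0.40. Of the 33 measured members whose windows lack the letters, 11 were lower, and of all measured genes 18.2%. With quantile normalization Psmb6 and Psmc6 had log2 ratios of -0.53 and -0.57, short of 1.5-fold. The CCAAT letters, read by the general factor NF-Y, occurred in 36.4% of member windows and 37.4% of all windows, and 5 of 14 measured members with them were lower against 10 of 25 without. The share of either motif was thus close to that of all promoters. Member windows had a median G and C content of 58.2%, against 56.3% for all windows of protein-coding genes. The lowest member, Psma4, has neither motif, and the 100 bases before its start (chr9:54950759-54950858, plus strand) are shown for that reason.
Psma4: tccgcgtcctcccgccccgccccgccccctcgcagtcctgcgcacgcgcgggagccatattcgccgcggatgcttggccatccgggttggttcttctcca

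Antigen presentation genes are induced by interferon together with the inducible subunits. Of 10 listed, 9 had a single-gene probe set and 5 were measured on both arrays. H2-D1 and H2-K1, class I heavy chain genes whose similar sequences may share probes, were 1.58-fold and 1.56-fold lower in the KO-titled pool. H2-D1 gave 813.6 units there and 1277 units in the wild-type pool. B2m, Irf1 and Tapbp had log2 ratios of 0.08, 0.08 and 0.24. With quantile normalization 0 of these genes were 1.5-fold lower.

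As another large cytosolic complex, the TCP1 ring chaperonin had 2 of 8 measured genes lower by 1.5-fold or more and 0 higher, and a median of -0.17 that was 0.02 with quantile normalization. The 2 genes are 25% of those measured, against 18.2% of all genes. Cct5 gave 1940.6 units in the KO-titled pool and 5651.4 units in the wild-type pool and was 2.94-fold lower, and Cct3 gave 3597.6 units against 6191.1 units in the wild-type pool and was 1.74-fold lower. Cct8 was the highest measured subunit at 0.07. The difference between the 2 complexes could not be tested.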

How the data were processed

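The authors deposited 1 linear intensity per probe set for each array. The submitters' processing notes name GCOS, the Affymetrix operating software, with no version. The algorithm behind the signal is not stated there, and no detection calls were used. With 2% of values trimmed off either end, both arrays had a mean of 500.0 units. Samples were grouped by title, and no per-sample column was left unused.

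Of 45101 probe sets, 64 were controls. A probe set was measured when it reached 64.2 units, the 40th percentile of non-control signals, on both arrays, as 23928 did. Log2 ratios were centred on their median, 0.01. The brightest probe set stood for a gene, and 932 probe sets naming several genes and 9160 naming none were left out. The platform annotation gave the names, updated by gene identifier through RefSeq (GRCm38.p6).

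Members and lists were chosen with earlier results of these data known. Each role group's highest and lowest member, members past 1.5-fold and the inducible subunits were named with both signals. With 1 array per group there are no p-values, and precision is limited by the number of arrays. The calculations were tested on simulated data. Alternatives covered the floor, the scaling, the probe set and the fold. Tables were handled with pandas 2.3.3 and numpy 2.4.6 in Python 3.11.15, loess with statsmodels 0.14.6, trimmed means with scipy 1.17.1, and plots with matplotlib 3.10.9.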

Additional observations from a re-analysis of the deposited data

How the results depend on the processing

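No paired analysis was possible because each group has 1 array. The count of proteasome genes at least 1.5-fold lower stayed between 15 and 19 under the other floors (25th and 60th percentile or none), the other scalings (no centring, quantile, loess) and the median over probe sets. It was 12 of 37 without suffixed probe sets, 7 of 20 by second brightest probe sets and 10 at 2-fold. The share of all genes that were lower changed as well. With no floor, 38.8% of members were lower against 27.2% of all genes. With the 60th percentile floor these shares were 34.1% and 15.2%, and by second brightest probe sets 35% and 19.1%. The count higher was 2 with quantile, loess, probe set medians and second brightest probe sets, and 0 at 2-fold. The members' median was -0.23 with quantile normalization, against -0.03 for all genes, and between -0.45 and -0.28 under the others. The alpha ring median was 0.23 by second brightest probe sets. Of 17 members past 1.5-fold, 13 kept that under every alternative of floor, scaling and probe set that measured them. Psmb6, Psmc6, Psmd4 and Psmd6 did not. Of those 13, only Psma7, Psmb3 and Psmd13 have several measured probe sets. The others rest on 1, so the alternatives of probe set could not change their ratios. Psmc6 turned to 0.016 without suffixed probe sets, and Psmd6 to -0.31 there and by second brightest probe sets. H2-K1 turned to 0.020 by second brightest probe sets.

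Partner genes had 5 of 14 lower by second brightest probe sets, against 19.1% of all genes. They had 2 of 20 higher with quantile and with probe set medians, against 13.4% and 12.6% of all genes. None was higher without suffixed probe sets or at 2-fold. Antigen presentation genes had 5 lower and 1 higher of 9 with the 25th percentile floor and with none, with medians of -0.64 and -0.70. Of all genes, 20.6% were lower and 13.0% higher with that floor, and 27.2% and 17.4% with none. Both settings added Tap1, Tap2, Erap1 and Nlrc5, which were under the main floor on at least 1 array. Antigen presentation genes had 0 of 5 lower with quantile and at 2-fold, and 0 of 1 without suffixed probe sets. They had 1 of 5 lower with loess and 1 of 3 by second brightest probe sets, the last with a median of -0.55. Of all genes, 18.2% were lower with quantile and 17.4% with loess. TCP1 ring genes had 1 of 5 lower by second brightest and without suffixed probe sets, and 1 of 8 at 2-fold. Of all genes, 19.1%, 18.1% and 6.75% were lower in the same order. Fewer genes were tested by second brightest and without suffixed probe sets. More antigen presentation genes were tested with the 25th percentile floor and with none. The cause of the other changes was not tested. Signals near the floor, such as those of Psmb8, Psmb9 and Psmc3ip, are the least certain. The smaller set without Psmc3ip and Psme3ip1 was chosen after seeing the data.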

Other observations

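In the RefSeq gene order the inducible subunit genes Psmb9 and Psmb8 lie among the peptide transporter genes Tap1 and Tap2, with Tap1 between Psmb9 and Psmb8 and Tap2 next to Psmb8. All 4 had lower signals in the KO-titled pool than in the wild-type pool, most of them close to the floor. Tap2 gave 42.1 units in the KO-titled pool, below the floor, and 131.1 units in the wild-type pool, and was at least 2.06-fold lower. Tap1 gave 52.7 units against 78.9 units in the wild-type pool and was at least 1.24-fold lower. Psmb5 and the thymus subunit gene Psmb11 are also neighbours. Psmb5 was 2.23-fold lower in the KO-titled pool, and Psmb11 was below the floor in both pools.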
